A study of Mus musculus with 3 samples.

Results

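The 10 genes described here, Cd44, Cd24a, Itga6, Ly6a, Prom1, Aldh1a1, Aldh1a3, Sox9, Klf4 and Myc, are grouped as markers of breast cancer stem cells. They were chosen by name, as the transcripts that the deposited tables name for these genes together with the assembled transcripts matched to them by shared exon bases, and make up 10 of the 24402 genes in the tables. The tables hold 29 RefSeq transcripts of them and 8 transcripts assembled from the reads.

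The cells were cancer stem cell spheroids (CSCsp) of 4T1, a mouse line of triple-negative breast cancer of Balb/c origin, grown for 7 days on ultralow attachment plates in serum-free medium with EGF, FGF and heparin and kept on a 40 µm strainer. In library R they had been co-cultured with splenocytes of Balb/c mice that had borne 4T1 tumors for 28 days, after reinforced activation of these splenocytes with anti-CD3/CD28 dynabeads and IL2. In library P they had been co-cultured with the tumor antigen primed splenocytes without that activation, and in library N with no splenocytes. The study asked how such splenocytes act on the stem cell spheroids. By the study's methods the spheroids were washed over the strainer again after 2 days of exposure, and RNA of 4 independent experiments was multiplexed for sequencing. The deposited tables give 1 library per condition, so no value below has a replicate and no test between conditions was possible. The sources differ on which of the other 2 libraries is P and which is N, and this could not be settled here. These libraries are therefore named as labelled, and each comparison was also made with the labels exchanged. An exchange reverses the direction of every P over N ratio given below. Of the more abundant markers, Cd44 and Myc also change direction in R over N and in R over P.

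Breast cancer stem cells are defined by how they behave, by seeding tumors and growing as spheres, and are sorted by surface proteins or by an enzyme reaction. CD44 binds hyaluronan, and its pairing with low CD24 is the usual human sort. CD49f (Itga6) and Sca-1 (Ly6a) serve for mouse mammary cells, CD133 (Prom1) marks stem-like cells of several tumors, and the Aldefluor reaction reads aldehyde dehydrogenases such as ALDH1A1 and ALDH1A3. SOX9, KLF4 and MYC are transcription factors tied to progenitor states. Transcript levels do not give the protein on a cell or the share of cells that carry it.

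The libraries held 19178982 fragments in R, 17887652 in P and 17894139 in N. A fragment is a read pair, taken as 300 aligned bases, and levels are FPKM, fragments per kilobase of transcript scaled by the library's total. All intervals are 95% intervals of counting error only. The luminal keratins Krt8 (467 FPKM in R, 554 in P and 651 in N) and Krt18 (528, 653 and 779 FPKM) were high, the basal keratin Krt14 had 14.0, 33.6 and 32.3 FPKM, and its usual partner Krt5 was listed at 0 in all 3 libraries. The summed level of 11 pan-leukocyte genes was 485 FPKM in R, 54.7 in P and 87.3 in N, of which Cd74, the invariant chain of MHC class II, gave 466, 46.1 and 68.0 FPKM. The pan-leukocyte antigen Ptprc itself had 0.305 FPKM in R, 0 in P and 0.201 in N. Of the pan-leukocyte genes that reached 1 FPKM in P or N, 4 of 6 were at least 2-fold lower in P than in N. Of the neutrophil genes 5 of 7 were, against 1.55% of all genes tested, and 0 of either list were higher. The lower genes all reached 1 FPKM in N but not in P, so the filter favoured this direction. The 2 genes of each list that reached 1 FPKM in P were less than 2-fold apart. Of 4 macrophage and dendritic cell genes tested, 1 (Lyz2) was lower and 1 (Cd163) higher, each passing through the library where it was high. N is the library labelled as having no splenocytes. In bulk RNA, fewer cells of a type and less RNA per cell cannot be told apart.

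Of the 10 markers 7 reached 1 FPKM in every library, and Prom1, Aldh1a1 and Aldh1a3 stayed below 0.2 FPKM in all 3. Ly6a was the 1 marker at least 2-fold apart, far higher in R than in P or N. For Cd44, Cd24a, Itga6, Sox9, Klf4 and Myc the highest and lowest libraries were between 1.13-fold and 1.61-fold apart. At least 2-fold higher in R over N was 1 of the 7 markers, against 3.09% of 11202 genes tested, and at least 2-fold lower 0 of 7, against 1.88%. In P over N it was 0 of 7 in either direction, against 0.530% of 11139 genes higher and 1.55% lower. In R over P it was 1 of 7 higher, against 4.16% of 11212 genes, and 0 of 7 lower, against 1.69%. The same shares of all genes tested are the background for the gene lists below. A gene was tested where either library of the comparison reached 1 FPKM, and calls and log2 ratios carry a pseudocount of 0.1 FPKM, whereas ratios given with an interval do not. The median log2 ratio of the 7 markers was 0.05 in R over N, -0.24 in P over N and 0.29 in R over P, beside 0.08, 0.03 and 0.03 over all genes tested.

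**Figure D1:**
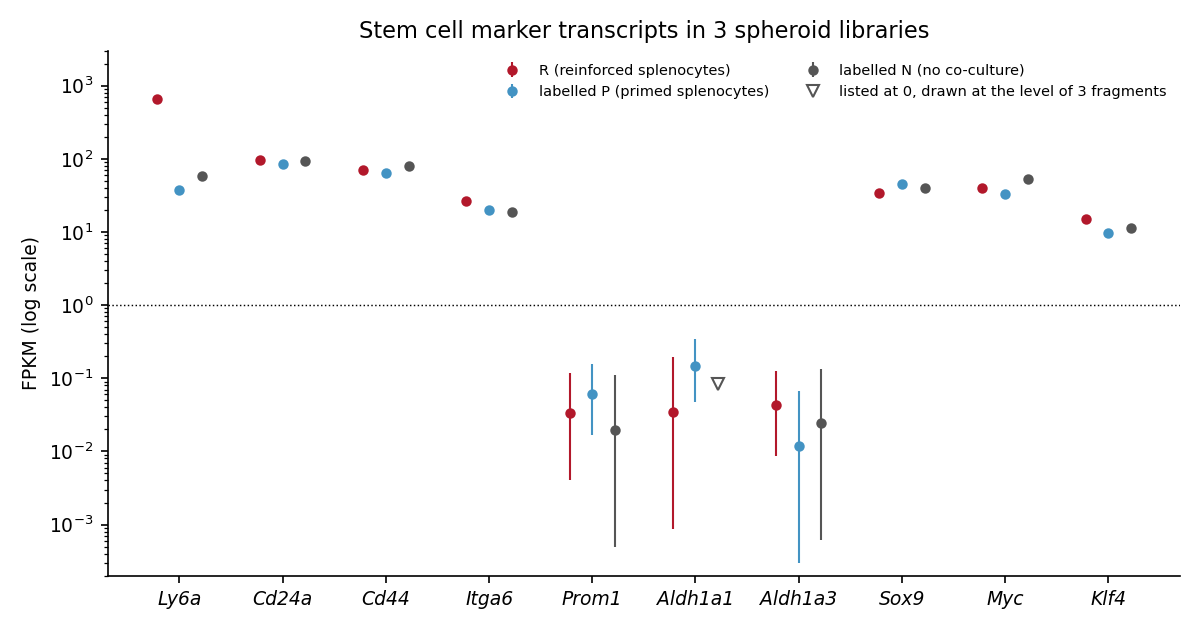
FPKM (log axis) of the 10 markers in libraries R, P and N, with exact Poisson 95% intervals of counting error (hidden by the points of the 7 abundant markers); the dotted line is 1 FPKM and the open triangle stands for a value of 0 at the level of 3 fragments. Ly6a stands apart in R, at 655 FPKM, while Prom1, Aldh1a1 and Aldh1a3 lie below the line in every library.

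**Figure D2:**
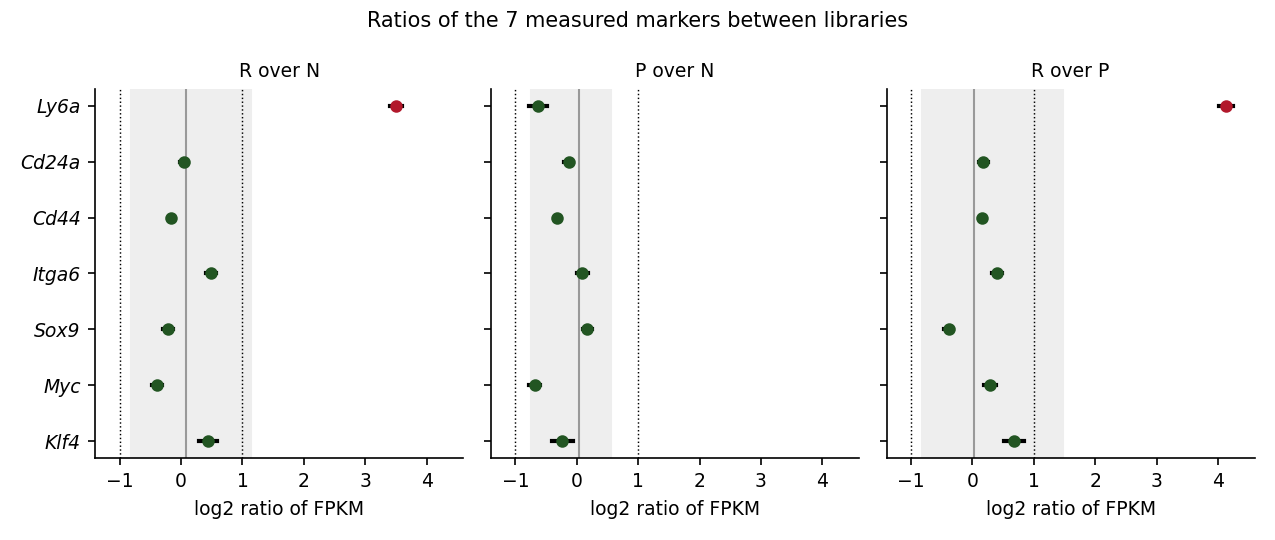
Log2 ratios of FPKM for the 7 measured markers in R over N, P over N and R over P, with 95% counting intervals as bars; grey bands hold the central 95% of all genes tested, the grey line is their median and dotted lines mark 2-fold. Ly6a lies outside the band in R over N and R over P, at 3.50 and 4.13, and all other points lie within it.

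Ly6a, on chromosome 15 at 74994877 to 74998031 of GRCm38 (minus strand), encodes Sca-1, a GPI-anchored protein of the Ly6 family that is used to sort mouse stem and progenitor cells and is also carried by activated T cells. It had 655 FPKM in R, 37.3 in P and 57.9 in N, from 12073, 640 and 991 fragments. It was the most abundant marker in R, rank 52 of all genes, while in P and N it ranked 1471 and 898. R over N was 11.3 (10.6 to 12.1) and R over P 17.5 (16.2 to 19.0). In R over N 41 genes, 0.366% of those tested, were at least as far up, and in R over P 44 genes, 0.392%. P over N was 0.645 (0.583 to 0.714), and 3.21% of genes tested were at least as far down.

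The T and NK cell genes, 17 in the tables, summed to 3.39 FPKM in R, 0.902 in P and 1.28 in N. Gzmb, a granzyme of killer cells and the 1 of them to reach 1 FPKM, had 1.58, 0 and 0.275 FPKM. Cd3e had 0.0771 FPKM in R, from 2 fragments, and 0 in P and N. Cd5 was highest in P, at 0.176 FPKM in R, 0.370 in P and 0.228 in N. The 9 B cell genes summed to 1.85 FPKM in R, 0.424 in P and 1.08 in N. Of the macrophage and dendritic cell genes, 16 in the tables with sums of 69.4 FPKM in R, 32.9 in P and 72.8 in N, Mpeg1, encoding perforin-2, had 24.5 FPKM in R, 0.227 in P and 0.697 in N, and so was high in the same library as Ly6a. The lysozyme gene Lyz2 had 6.51 FPKM in R, 0.313 in P and 28.9 in N, and the macrophage antigen Adgre1 stayed below 0.05 FPKM in all 3. Of 14 neutrophil genes 7 reached 1 FPKM in R, 2 in P and 7 in N. The part of these cells in the Ly6a level was not tested.

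RefSeq transcripts alone carried 0.644% of the Ly6a FPKM in R, 1.51% in P and 1.33% in N, at 4.22, 0.562 and 0.767 FPKM. Nearly all the rest, 96.2% in R, 98.5% in P and 98.7% in N, lay on 2 assembled transcripts that joined the later Ly6a exons to first exons about 434 kilobases away, at the noncoding gene 9030619P08Rik. The 2 remote first exons together had a coverage of 623 reads per base in R, 38.3 in P and 51.1 in N, while the annotated Ly6a first exon of 153 bases had 7.94, 0.749 and 1.11. With no gap the annotated first exons of Ly6a and 9030619P08Rik matched at 60.7% of 122 bases. Where Ly6a transcription starts in these cells was therefore not resolved, but the level did not rest on those exons. Over the 2 exons that all RefSeq transcripts of Ly6a share (720 bases, a measure added after the data were seen), the level on the FPKM scale was 753 in R, 42.4 in P and 66.7 in N, and R over N was 11.3 and R over P 17.7. On RefSeq transcripts alone R over N was 5.50 (3.04 to 10.8) and R over P 7.50 (3.87 to 16.3).

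StringTie placed Ly6a in 1 locus with its paralogs Ly6c1 and Ly6c2, so a share of reads could have been exchanged among them. Another assembled transcript, counted with Ly6a, joined the later Ly6a exons to a first exon at Ly6c1. It had 20.8 FPKM in R and 0 in P and N. To show how far the genes can be told apart, the 117-base coding exon of each is printed from the GENCODE vM21 transcripts (GRCm38, minus strand of chromosome 15, strain C57BL/6J reference), with capitals at bases that differ from Ly6a. The exons lie at chr15:74996452-74996568 in Ly6a, chr15:75047353-75047469 in Ly6c1 and chr15:75110511-75110627 in Ly6c2.
Ly6a: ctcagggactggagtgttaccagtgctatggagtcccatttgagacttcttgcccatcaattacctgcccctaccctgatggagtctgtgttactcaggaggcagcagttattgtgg
Ly6c1: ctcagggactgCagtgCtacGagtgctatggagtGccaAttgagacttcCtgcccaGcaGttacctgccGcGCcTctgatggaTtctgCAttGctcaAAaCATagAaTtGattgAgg
Ly6c2: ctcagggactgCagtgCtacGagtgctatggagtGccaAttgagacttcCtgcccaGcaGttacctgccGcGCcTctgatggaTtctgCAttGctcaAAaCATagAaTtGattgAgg
Ly6a differed from either paralog at 25 of 117 bases (78.6% identity), and the longest stretch it shared with them was 13 bases. Ly6c1 and Ly6c2 did not differ in this exon, so their separate values are uncertain. The Ly6a exon had a coverage of 5759 reads per base in R, 310.0 in P and 471 in N.

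The relatives of Ly6a were not alike. Ly6c1 had 97.6 FPKM in R, 9.26 in P and 10.2 in N, and Ly6c2 19.4, 1.03 and 2.06 FPKM. Ly6e, whose product is a GPI-anchored protein of wide distribution, had 273, 88.5 and 99.8 FPKM and was the most abundant of the 10 listed relatives. Ly6i had 2.95 FPKM in R and was listed at 0 in P and N. Ly6d, a marker of luminal and squamous epithelium, had 32.5 FPKM in R and 29.3 in the library labelled P, against 14.0 in the library labelled N, so that with these labels exchanged it would be lower in the primed co-culture and close in R and the spheroids alone. Of the 7 relatives tested, 5 were at least 2-fold higher in R over N, against 3.09% of all genes tested. In R over P it was 4 of 7, against 4.16%. Ly6i passed the filter in both comparisons only through R, where it was high. Ly6c1 and Ly6c2 are not independent in these counts, since their separate values are uncertain. The median log2 ratios of the relatives were 1.45 and 1.62. In P over N 1 of 6, Ly6d, was at least 2-fold higher, against 0.530% of all genes tested, and the median was -0.15.

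The genes whose pair of log2 ratios (P over N and R over N) lay nearest to that of Ly6a, among 7917 named genes that reached 5 FPKM in a library, were Irgm2, Igtp and Gbp7, at distances of 0.12, 0.23 and 0.28. These 3 encode interferon-inducible GTPases. Irgm2 had 118 FPKM in R, 7.24 in P and 11.3 in N, Igtp had 348, 16.0 and 28.8 FPKM, and Gbp7 73.7, 5.33 and 7.69 FPKM. This likeness rests on 3 libraries. Of the interferon response genes, listed with earlier results of these data known, 14 of 14 were at least 2-fold higher in R over N. In R over P it was 14 of 14 as well. The shares of all genes tested were 3.09% and 4.16%, and the median log2 ratios of the list were 2.07 and 2.54. In P over N 3 of 14 (Gbp5, Cxcl10 and Socs1) were at least 2-fold lower, against 1.55% of all genes tested. In that comparison 0 were higher, and the median was -0.58. Psmb8, an immunoproteasome subunit and the highest gene of the list by mean, had 441 FPKM in R, 126 in P and 160.3 in N.

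**Figure D3:**
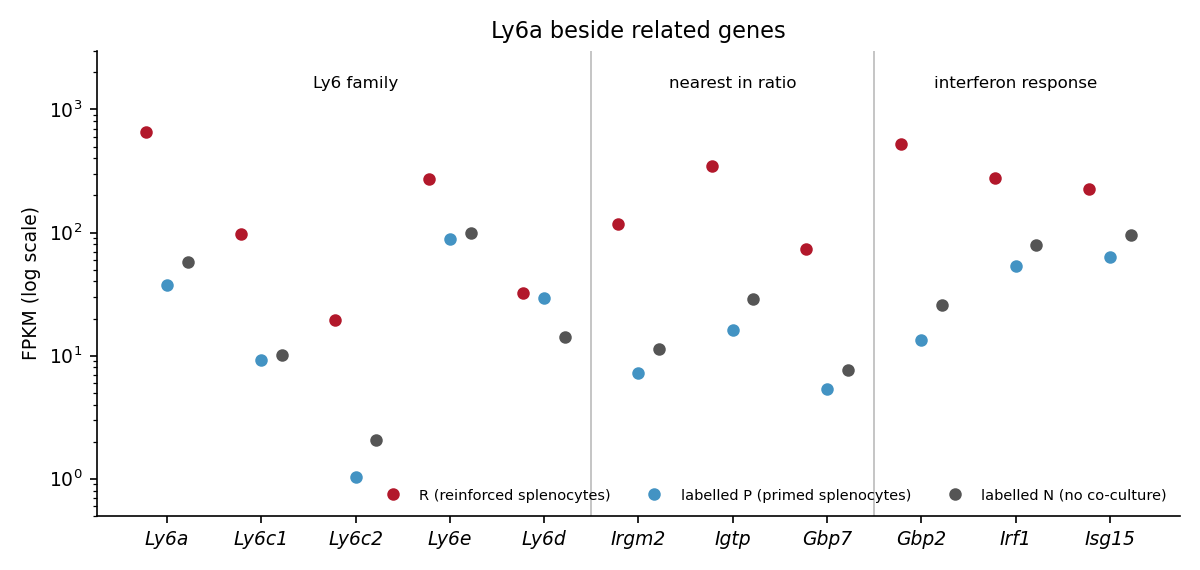
FPKM (log axis) in libraries R, P and N of Ly6a, 4 relatives, the 3 genes nearest to it in ratio and 3 interferon response genes. All 11 are higher in R than in N, and 10 are lower in P than in N, with Ly6d as the exception at 29.3 FPKM in P and 14.0 in N. The 3 nearest genes were chosen by these ratios, so their likeness to Ly6a was fixed by the choice. The 3 interferon response genes were picked from a longer list, in which Irf9 was higher in P (6.66 FPKM) than in N (5.34).

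Cd44, on chromosome 2 at 102811142 to 102901665 (minus strand), encodes the receptor for hyaluronan. It had 71.3 FPKM (69.7 to 72.9) in R, 64.2 (62.7 to 65.7) in P and 80.3 (78.5 to 82.1) in N, from 7920, 7219 and 7753 fragments. R over N was 0.888 (0.861 to 0.916), P over N 0.800 (0.774 to 0.826) and R over P 1.11 (1.08 to 1.15). The level was thus highest in N by a margin above counting error, but 20.7% of all genes tested were at least as far down in R over N and 8.26% in P over N. Over the 8 exons that all its RefSeq transcripts share and no other exon overlaps, the scaled coverage was 79.7 in R, 75.2 in P and 80.2 in N, so R over N was 0.994 and P over N 0.938. The sum over transcripts spread more widely than the shared exons did.

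The 10 variable exons of Cd44, v1 to v10, lie between constant exons c5 and c6 and lengthen the extracellular stem of the protein. The standard form skips them all, and the variant forms, in human tumors v6 and v9 among them, are tied to metastasis and to stem-like cells. The sequences that tell the forms apart are shown from the GENCODE vM21 transcripts (GRCm38, minus strand): the c5 to c6 junction of the standard form, with the first 30 bases of c6 in capitals, and the exons v5 at chr2:102842261-102842377, v6 at chr2:102839358-102839477 and v9 at chr2:102832483-102832572, of 117, 120 and 90 bases.
Cd44 c5-c6: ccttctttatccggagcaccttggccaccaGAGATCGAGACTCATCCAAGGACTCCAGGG
Cd44 v5: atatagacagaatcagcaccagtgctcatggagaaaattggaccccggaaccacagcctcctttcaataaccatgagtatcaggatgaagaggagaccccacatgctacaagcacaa
Cd44 v6: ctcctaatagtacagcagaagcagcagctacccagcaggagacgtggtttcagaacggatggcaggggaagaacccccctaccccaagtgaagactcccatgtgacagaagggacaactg
Cd44 v9: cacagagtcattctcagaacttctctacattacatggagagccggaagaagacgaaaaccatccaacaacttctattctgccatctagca
All 10 variable exons have a length that is a multiple of 3, so that any of them can be skipped without a shift of the reading frame.

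The standard transcript was the most abundant single form, with 37.1 FPKM in R, 29.8 in P and 45.0 in N, or 52.0%, 46.4% and 56.1% of the gene. The transcripts with variable exons together made 48.0% (46.8% to 49.1%) of Cd44 FPKM in R, 53.6% (52.4% to 54.8%) in P and 43.9% (42.8% to 45.0%) in N. Within the variant forms 2 transcripts that differ by v5 and the first exon stood in opposite places. The RefSeq form with v6 to v10 had 4.30 FPKM in R, 3.57 in P and 17.6 in N. The assembled form with v5 to v10, which lacks the first exon, had 15.1 FPKM in R, 12.9 in P and 0.0856 in N. The form with v8 to v10 had 3.30 FPKM in R, 3.69 in P and 6.56 in N, and the form with all 10 variable exons stayed below 0.3 FPKM in every library.

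The exons themselves showed no such exchange. As a percentage of the mean coverage of 6 inner constant exons, v5 had 3.07% in R, 3.38% in P and 4.17% in N, although a form with v5 was assigned 15.1 FPKM in R and under 0.1 in N. Exon v6 had 12.0% in R, 12.4% in P and 15.3% in N, v7 had 19.9%, 22.3% and 23.0%, v8 had 32.3%, 33.8% and 36.5%, and v9 had 34.8%, 34.1% and 40.4%. Inclusion thus climbed from v5 to v9 in all 3 libraries, with N highest at each of these exons. Exons v1 to v4 had less than 0.3 reads per base of their own. They lie within an assembled transcript that keeps 10401 bases from c5 through v4 unspliced, whose coverage over that stretch was 15.9 in R, 20.6 in P and 18.7 in N. The mean of v8, v9 and v10 was 31.3% of the constant exons in R, 30.7% in P and 35.3% in N. By summed FPKM the variant share was lowest in N, by exon coverage it was highest in N, so no order of the libraries in variant use held across both measures.

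**Figure D4:**
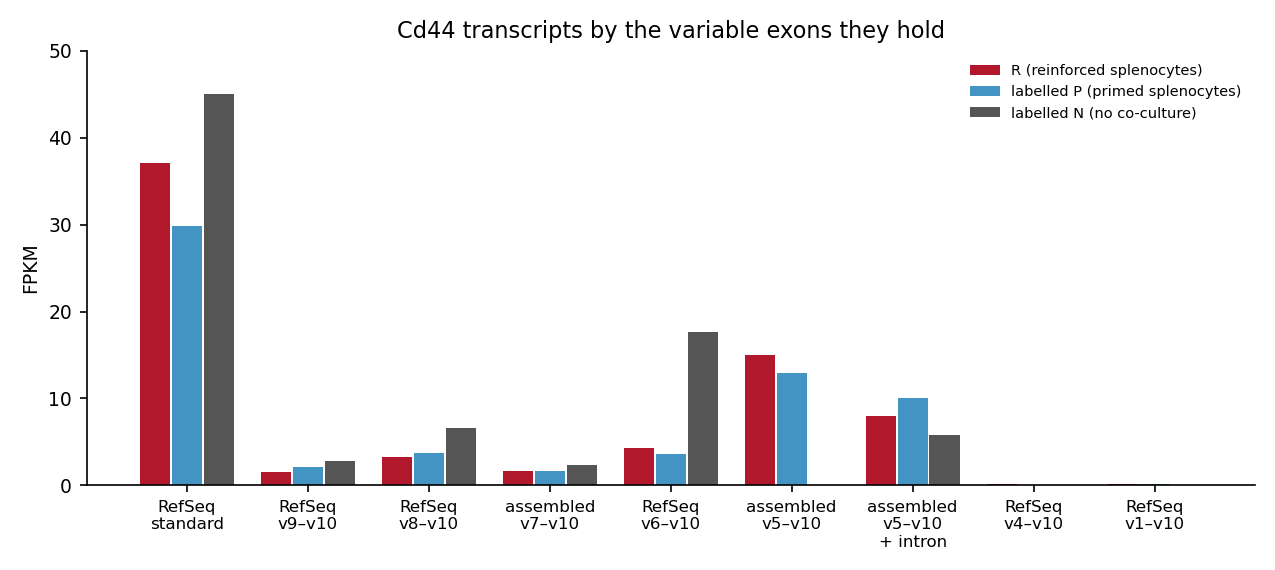
FPKM of the 9 Cd44 transcripts in libraries R, P and N, ordered by the variable exons they hold; "intron" marks the transcript with the unspliced stretch. The RefSeq v6 to v10 form is highest in N (17.6 FPKM) and the assembled v5 to v10 form in R (15.1 FPKM), with 0.0856 FPKM in N.

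**Figure D5:**
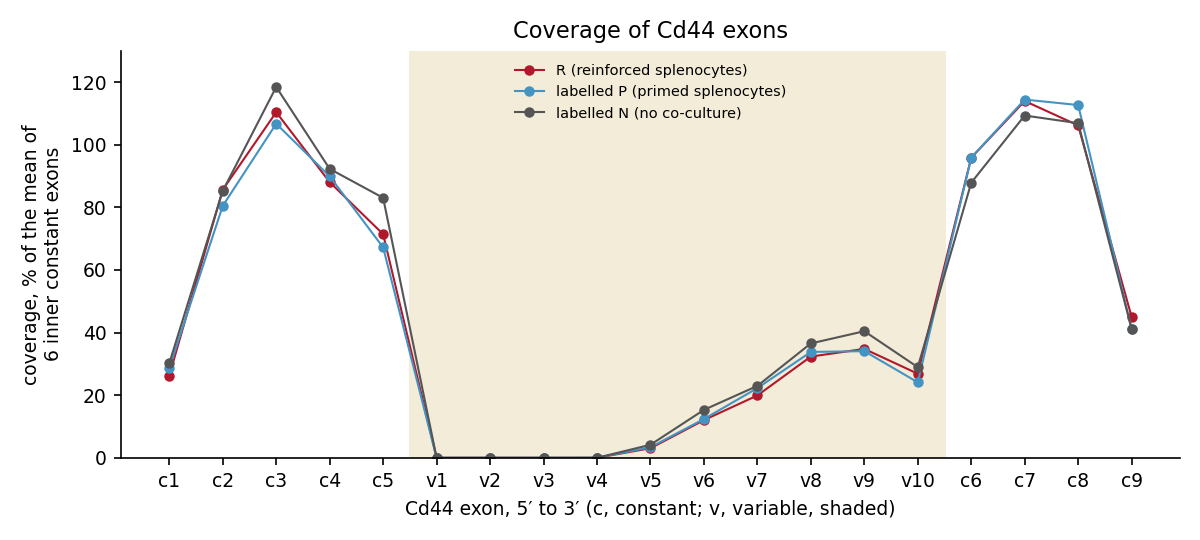
Coverage of each Cd44 exon in libraries R, P and N as a percentage of the mean of 6 inner constant exons (c2 to c4 and c6 to c8), in transcript order, variable exons shaded. The 3 libraries follow nearly the same profile, with v1 to v4 close to 0 and v9 at 34.8%, 34.1% and 40.4%.

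Of the 11 listed genes of hyaluronan metabolism, CD44 ligands and CD44 splicing, 9 were tested in R over N and P over N. In each 1, Hyal1, was at least 2-fold lower, against 1.88% and 1.55% of all genes tested. In each 0 were higher, against 3.09% and 0.530%. Hyal1 passed the filter of 1 FPKM only through N, where it was highest. Hyal1, a hyaluronidase, had 0.698 FPKM in R, 0.241 in P and 1.54 in N, and the medians were -0.21 and -0.01 on the log2 scale. In R over P 0 of 8 were 2-fold apart. Spp1, osteopontin and a ligand of CD44, was the highest of the list at 2290.0 FPKM in R, 2664 in P and 2694 in N. Esrp1, the epithelial splicing factor that favours the variable exons, had 16.0 FPKM in R, 17.9 in P and 18.0 in N. Has2, a hyaluronan synthase, had 11.0, 6.27 and 9.71 FPKM.

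Cd24a, on chromosome 10 at 43579169 to 43584265 (plus strand), encodes a small mucin-like GPI-anchored protein. It had 96.5 FPKM (93.3 to 99.9) in R, 85.3 (82.1 to 88.5) in P and 93.6 (90.3 to 97.0) in N, and was above Cd44 in every library. By summed FPKM its libraries lay closest together among the 7 measured markers, with R over N at 1.03 (0.982 to 1.08), P over N at 0.911 (0.865 to 0.960) and R over P at 1.13 (1.08 to 1.19). The interval of R over N holds 1. Both its exons, of 154 and 1662 bases, were evenly covered, at 548 and 556 reads per base in R, 478 and 456 in P, and 484 and 504 in N. By transcript the spheroids were thus high in both Cd44 and Cd24a under all 3 conditions, and whether the proteins stood on the same cells was not measured.

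Itga6, on chromosome 2 at 71786939 to 71858427 (plus strand), encodes the α6 integrin chain, which pairs with β1 or β4 to bind laminin. It had 26.3 FPKM (25.4 to 27.3) in R, 19.9 (19.1 to 20.8) in P and 18.7 (17.9 to 19.5) in N. R over N was 1.41 (1.33 to 1.49) and R over P 1.32 (1.25 to 1.40), and P over N was 1.06 (1.00 to 1.13), with an interval that reaches 1. In R over N 10.7% of all genes tested were at least as far up.

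The α6 chain has 2 cytoplasmic tails, set by exon 25 of 130 bases. Transcripts that keep it encode the α6A tail and end at a stop codon inside it, and those that skip it run on in another frame to the α6B tail, the form tied to breast cancer stem cells in human lines. The coding part of the exon is shown to its stop codon, in capitals, from the GENCODE vM21 transcripts (chr2:71853534-71853641 of GRCm38).
Itga6 exon 25: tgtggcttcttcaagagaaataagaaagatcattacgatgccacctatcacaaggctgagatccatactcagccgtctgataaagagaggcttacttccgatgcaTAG
The α6A transcript had 20.2 FPKM in R, 15.3 in P and 16.3 in N, and the α6B transcript 6.15, 4.63 and 2.36 FPKM. The α6A share was 76.6% (75.1% to 78.1%) in R, 76.7% (74.9% to 78.5%) in P and 87.4% (85.8% to 88.8%) in N. The coverage of exon 25 relative to the exon before it was 92.5% in R, 104% in P and 97.4% in N. By this measure inclusion was again lower in R than in N, but it was highest in P, where the transcript estimates put N first. These percentages also lay above the α6A shares in every library. The 2 measures thus differ in level too, and the level of the α6B form was not settled.

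Of the 10 listed integrin partners and laminin genes all 10 were tested in each comparison, with 0 at least 2-fold apart in R over N or P over N, and medians of 0.12 and -0.03 on the log2 scale. In R over P 1 was higher, against 4.16% of all genes tested, and the median was 0.22. This was Lama3, the laminin α3 chain, at 17.1 FPKM in R, 7.38 in P and 12.7 in N. Itga3, the other main laminin-binding α chain, was the highest at 437, 351 and 334 FPKM. Itgb1 had 154 FPKM in R, 142 in P and 149 in N, and Itgb4 50.8, 69.2 and 51.9 FPKM.

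Prom1, on chromosome 5 at 43993622 to 44101736 (minus strand), encodes CD133, a pentaspan protein of membrane protrusions. It had 0.0331 FPKM in R, 0.0609 in P and 0.0197 in N, from 2, 4 and 1 fragments. All of them fell on 1 of its 8 RefSeq transcripts, and 7 were listed at 0 in every library. At this depth 3 fragments correspond to 0.0418 FPKM in R, 0.0448 in P and 0.0448 in N, so a difference between libraries was not detectable. Its paralog Prom2, a membrane protein of epithelia, had 12.4 FPKM in R, 21.3 in P and 17.9 in N.

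The other listed mammary stem and progenitor markers were 14, of which 7 were tested in R over N with 0 at least 2-fold apart (median log2 ratio -0.21), and 8 in P over N, again with 0 (median -0.19). In R over P 1 of 8 was higher, against 4.16% of all genes tested, beside a median of 0.03. This was Nt5e, the ectonucleotidase CD73, at 184 FPKM in R, 78.3 in P and 100.02 in N. Epcam, the epithelial adhesion molecule, was the highest at 245, 242 and 285 FPKM. Procr, which marks a multipotent mouse mammary cell, had 17.0 FPKM in R, 12.3 in P and 15.2 in N, and Lgr5 was listed at 0 in all 3 libraries.

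The ALDH1 enzymes oxidize retinal to retinoic acid. Aldh1a1, on chromosome 19 at 20601982 to 20643462 (plus strand), had 0.0346 FPKM in R, 0.146 in P and 0 in N, from 1, 5 and 0 fragments. A count of 0 in N allows up to 0.0825 FPKM, the level of 3 fragments. Aldh1a3, on chromosome 7 at 66390893 to 66427477 (minus strand), had 0.0425 FPKM in R, 0.0119 in P and 0.0242 in N, from 3, 1 and 1 fragments. Neither gene could be compared between libraries at this depth.

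Other aldehyde dehydrogenases were expressed. Among all 21 genes named Aldh, a list added after the values were seen, 11 reached 1 FPKM in a library and 0 of these 11 were at least 2-fold apart in any comparison. Aldh2, the mitochondrial enzyme of ethanol metabolism, led with 167 FPKM in R, 173 in P and 173 in N. Aldh3a2, a fatty aldehyde dehydrogenase, had 41.2 FPKM in R, 45.5 in P and 40.3 in N, and Aldh3a1 15.6, 21.2 and 17.7 FPKM. The fellow retinal dehydrogenase Aldh1a2 had 0.143 FPKM in R, 0.0886 in P and 0.190 in N. Of the 14 listed genes of the retinoic acid pathway 9 were tested in each comparison and 0 were 2-fold apart, with medians of 0.19 in R over N, 0.14 in P over N and 0.08 in R over P. The receptor Rarg was the highest by mean at 35.2 FPKM in R, 31.5 in P and 32.4 in N.

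Sox9, on chromosome 11 at 112782210 to 112787757 (plus strand), encodes an HMG-box factor of luminal progenitors. It had 34.1 FPKM (32.8 to 35.4) in R, 44.6 (43.1 to 46.1) in P and 39.6 (38.1 to 41.0) in N. R over N was 0.862 (0.818 to 0.908), P over N 1.13 (1.07 to 1.18) and R over P 0.765 (0.727 to 0.805). It was the 1 marker of the 7 that was lower in R than in P, and 10.7% of genes tested were at least as far down in that comparison.

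Klf4, on chromosome 4 at 55527137 to 55532475 (minus strand), encodes a zinc finger factor that is part of the reprogramming set. It had 15.2 FPKM (14.3 to 16.3) in R, 9.54 (8.73 to 10.4) in P and 11.2 (10.4 to 12.2) in N, from 890, 521 and 614 fragments, the fewest of the 7 measured markers in each library. R over N was 1.35 (1.22 to 1.50), P over N 0.848 (0.753 to 0.954) and R over P 1.60 (1.43 to 1.78). After Ly6a this was the highest R over P ratio among the 7 measured markers, and 7.34% of genes tested were at least as far up.

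Myc, on chromosome 15 at 61985341 to 61990421 (plus strand), encodes the factor that drives ribosome production and growth. It had 40.0 FPKM (38.3 to 41.8) in R, 32.7 (31.1 to 34.4) in P and 52.7 (50.7 to 54.8) in N. P over N was 0.621 (0.583 to 0.661), with 2.80% of genes tested at least as far down. R over N was 0.760 (0.716 to 0.806) and R over P 1.22 (1.14 to 1.31). Of these values, 4.11 FPKM in R, 5.15 in P and 8.86 in N lay on an assembled transcript that keeps the first intron. The last exon, free of that transcript's intron, gave a P over N of 0.701 and an R over N of 0.786.

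Of 17 listed partners and targets of MYC 16 were tested in each comparison and 0 were at least 2-fold apart, with medians of 0.07 in R over N, 0.02 in P over N and 0.14 in R over P. Odc1, an ornithine decarboxylase and a classic MYC target, had 62.1 FPKM in R, 38.8 in P and 44.5 in N. Ldha, lactate dehydrogenase and the highest of the list, had 759.7 FPKM in R, 1198 in P and 1149 in N.

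Of 17 listed stemness transcription factors 8 were tested. Sox2 and Lin28b were listed at 0 in all 3 libraries, and Pou5f1, Nanog, Lin28a and Sall4 stayed below 0.1 FPKM. Id3, an inhibitor of DNA binding by bHLH factors, was the 1 of 8 at least 2-fold apart, at 61.7 FPKM in R, 16.9 in P and 27.3 in N. It was higher in R over N, against 3.09% of all genes tested, and in R over P, against 4.16%. The medians were -0.17 in R over N, -0.07 in P over N and -0.24 in R over P. Sox4 was the highest at 139.8 FPKM in R, 135 in P and 130.2 in N. Klf5 had 47.5, 55.5 and 59.3 FPKM.

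The Notch and Wnt pathways serve mammary stem cells. Of 15 listed Notch genes 12 were tested, and Hey1, a target of the pathway, was the 1 that was 2-fold apart. It had 0.819 FPKM in R, 4.84 in P and 1.59 in N. It was higher in P over N, against 0.530% of all genes tested, and lower in R over P, against 1.69%. In R over P it passed the filter of 1 FPKM only through P. The medians were -0.11 in R over N, 0.17 in P over N and -0.20 in R over P, and the receptor Notch2 was the highest by mean at 24.3, 24.9 and 24.1 FPKM. Of 13 Wnt genes 10 were tested and 0 were 2-fold apart in any comparison, with medians of -0.09, 0.11 and -0.18. The highest, Ctnnb1, encoding β-catenin, had 345 FPKM in R, 383 in P and 342 in N.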

How the data were processed

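RNA of 3 spheroid libraries was aligned by the authors with HISAT2 (version 2.2.0) and quantified with StringTie (the submitters' processing notes give version 2.1.3, the headers of the files 2.1.5). The deposited tables give coverage, FPKM and TPM per transcript. The notes name mm9, while the coordinates of all 10 markers are those of GRCm38. The deposited FPKM is coverage per total aligned bases, and the deposited TPM is that value rescaled.

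The level of a gene is the sum of FPKM on its RefSeq transcripts plus the assembled ones sharing the most exon bases with it. Fragments are coverage times length over 300 bases. Exon coverage was summed over transcripts whose exon matched by at least 90%. FPKM intervals are exact Poisson, those of ratios and shares exact Clopper-Pearson (95%). PCR copies are not independent molecules, so they cover counting error only. Calls needed a 2-fold log2 ratio at a pseudocount of 0.1 FPKM and 1 FPKM in either library. Log2 ratios of low genes are understated by the pseudocount. With 1 library per condition no p-value was computed. The calls were run on simulated fragments with known changes and counting error only, which cannot show variation between cultures or errors in assigning reads to transcripts. Python 3.11.15, pandas 2.3.3 and SciPy 1.17.1 were used.

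The markers and gene lists were chosen with earlier results of these data known. Named were all 10 markers, the 3 genes nearest in ratio to a marker 2-fold apart (predicted Gm and Rik genes left out), and, from each pathway or family list, the members 2-fold apart and the highest by mean FPKM; other genes were picked after their values were seen. Ly6g, Trac, Ighm and Ighd were not analysed here, and 1 gene of the interferon list is not reported here. Of the marker lists, 12 of 13 mammary epithelial genes reached 1 FPKM in each library. Neutrophil genes summed to 66.0 FPKM in R, 58.0 in P and 98.3 in N, erythroid genes to 43.8, 42.9 and 49.4, and fibroblast and endothelial genes to 18.9, 17.6 and 14.4. Promoter sequences were at hand for 4 of the 10 markers and are not shown.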

Additional observations from a re-analysis of the deposited data

How the results depend on the processing

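The count of markers at least 2-fold apart, Ly6a higher in R over N and in R over P and none in P over N, stood under TPM, pseudocounts of 0.01 and 1 FPKM, rescaling by the median ratio, the highest transcript alone, RefSeq transcripts alone, a filter of 5 FPKM, the labels N and P exchanged and, chosen after seeing the data, shared exons. With no filter 1 marker was higher in P over N, Aldh1a1, on 5 fragments in P and 0 in N. The share of Cd44 FPKM on variant forms moved as well: on RefSeq transcripts alone it was 20.3% in R, 24.5% in P and 37.5% in N, by the coverage of v8 to v10 31.3%, 30.7% and 35.3%, and with labels exchanged 43.9% in P and 53.6% in N. Of 168 log2 ratios of the 7 measured markers under 8 settings 155 kept their sign. Of the 13 others 11 came from exchanged labels, 1 was Cd24a in R over N when rescaled (-0.0036) and 1 Itga6 in P over N on its highest transcript alone (-0.10). The pseudocount settings, with 21 ratios each, could not change a sign, and exchanged labels reverse every P over N ratio by construction. The total is therefore no measure of stability. Ly6a spanned 2.32 to 4.13 in R over N and 2.70 to 4.16 in R over P on the log2 scale. The median of all genes moved by less than 0.05 on rescaling. No paired analysis was possible because each condition has 1 library. Prom1, Aldh1a1 and Aldh1a3 had 5 fragments or fewer in each library.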
